A study of Mus musculus with 2197 samples.

Results

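Hormone-secreting cells store their peptides in dense-core granules and release them by regulated exocytosis. A list of 35 genes of this machinery was followed through the embryonic mouse pancreas. The members form a list by function, drawn up with earlier results of these data known, and each had to be present both in a plate-based read count table and in droplet libraries. All 35 were found in both, out of 40824 genes in the read count table. They comprise 6 granins and granule proteins (Chga, Chgb, Scg2, Scg3, Vgf, Resp18), 6 prohormone processing enzymes and their helpers (Pcsk1, Pcsk2, Pcsk1n, Scg5, Cpe, Pam) and 4 proteins of the granule membrane or of granule biogenesis (Ptprn, Ptprn2, Hid1, Baiap3). The others are 8 Rab GTPases and Rab effectors (Rab3a, Rab3b, Rab3d, Rab27a, Rab27b, Sytl4, Rims2, Rph3al), 6 SNARE, priming and complexin genes (Snap25, Stx1a, Vamp2, Cplx2, Unc13a, Cadps) and 5 synaptotagmins (Syt4, Syt5, Syt7, Syt11, Syt13).

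The study sorted single pancreatic cells by fluorescent reporters between E9.5 and E17.5 and sequenced 2195 of them with Smart-seq2, a full-length method run in plates. Unsorted E14.5 pancreas was also run through droplets in 2 libraries, which count molecules at the 3' end of transcripts. The sorts were made to trace how progenitors become endocrine, duct and acinar cells, and the inhibitor experiment to ask whether ERK signalling holds back endocrine differentiation. The number in a sample title defines a set of cells, the replicate used throughout. There were 82 sets in 29 groups, and the labels do not say whether a set is an embryo, a litter or a plate.

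Of the tested sorts, Ngn3-GFPhigh and Ngn3-GFPlow cells carry GFP knocked into the gene of the endocrine transcription factor Ngn3 (Neurog3), and were split by GFP brightness. Ngn3-GFPhigh had 77 cells in 3 sets at E13.5, 108 in 3 sets at E14.5 and 51 in 2 sets at E15.5, and Ngn3-GFPlow 118 in 3, 104 in 5 and 37 in 2. At E10.5, E12.5, E16.5 and E17.5 the same line was sorted without a split (Ngn3-GFP+, 62, 121, 130 and 125 cells in 3, 3, 4 and 4 sets). GFP protein outlasts transcription, so a sort by it also takes cells that have stopped making Neurog3 RNA. Ins1-RFP+ E15.5 cells (39 cells, 2 sets) express RFP from a transgene of the insulin gene Ins1, and Gcg-GFP+ E15.5 cells (36 cells, 2 sets) carry GFP joined to the glucagon gene. A further 11 Gcg-GFP+ cells formed 1 set at E17.5. Sox9-CreER;Rosa-RFP+ cells (55 cells at E16.5 and 34 at E17.5, 2 sets each) descend from cells in which an inducible Cre driven by the duct gene Sox9 switched on RFP. Pdx1-Cre;Rosa-RFP+ cells (2, 2, 4, 4, 4 and 3 sets from E10.5 to E15.5) descend from all Pdx1-expressing progenitors, so they mix lineages. Ngn3-Cre;Rosa-RFP+, Ptf1a-CreER;Rosa-RFP+, Pdx1-GFP+ and Pdx1-GFPhigh cells of E9.5 to E11.5 were used for levels only. Explants were dorsal pancreata of E13.0 Ins1-RFP embryos, 3 to a membrane, kept for 2 days with 10 µM U0126, an inhibitor of the kinases MEK1 and MEK2, or without it. Their RFP+ cells gave 4 sets each (60 cells with U0126 and 58 control cells).

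As background, granins condense in the trans-Golgi network together with prohormones, which the convertases Pcsk1 and Pcsk2 cut and the carboxypeptidase Cpe trims as the granule matures. Rab3 and Rab27 GTPases with effectors such as Sytl4 (granuphilin) tether the granule at the plasma membrane. There Unc13a and Cadps prime it, the SNARE proteins Snap25, Stx1a and Vamp2 fuse it with the membrane, and synaptotagmins couple fusion to calcium. In islets the same apparatus releases insulin from beta cells and glucagon from alpha cells.

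RefSeq promoter windows (GRCm38.p6, 250 bases before to 50 after the start) were on hand for 24 of the 35 members. The cAMP response element TGACGTCA, searched on both strands, was in 3 of the 24, against 2.03% of 27025 genes. The 3 promoters that hold it, those of Scg2, Chgb and Pcsk1, are shown. Each is written 5′ to 3′ on the gene's strand, with the element in capitals. Scg2 covers chr1:79439977-79440276 on the minus strand, Chgb chr2:132781392-132781691 on the plus strand and Pcsk1 chr13:75089607-75089906 on the plus strand. Gene positions further on are given on the same build.
Scg2: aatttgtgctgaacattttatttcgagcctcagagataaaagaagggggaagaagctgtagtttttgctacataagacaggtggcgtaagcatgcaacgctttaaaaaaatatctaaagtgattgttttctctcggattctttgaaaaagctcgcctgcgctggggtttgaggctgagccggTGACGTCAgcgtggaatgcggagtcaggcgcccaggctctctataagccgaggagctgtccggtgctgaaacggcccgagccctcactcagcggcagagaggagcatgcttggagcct
Chgb: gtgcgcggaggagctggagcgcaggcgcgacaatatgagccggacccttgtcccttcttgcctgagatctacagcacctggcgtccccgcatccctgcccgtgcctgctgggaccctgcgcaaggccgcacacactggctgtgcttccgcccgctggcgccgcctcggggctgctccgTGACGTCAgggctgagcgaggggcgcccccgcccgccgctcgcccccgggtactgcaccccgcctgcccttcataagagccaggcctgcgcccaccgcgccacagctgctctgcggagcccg
Pcsk1: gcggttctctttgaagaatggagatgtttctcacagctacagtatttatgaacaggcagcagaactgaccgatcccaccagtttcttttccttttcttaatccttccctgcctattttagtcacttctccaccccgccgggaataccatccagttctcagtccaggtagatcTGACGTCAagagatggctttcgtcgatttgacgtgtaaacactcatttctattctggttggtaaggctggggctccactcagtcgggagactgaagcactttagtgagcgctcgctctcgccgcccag
The element begins 68 bases before the start in Scg2, 72 before it in Chgb and 78 before it in Pcsk1. The E-box CAGNTG, which can share a CA with the end of that element, was in 16 of the 24 (66.7%), against 54.6% of genes. The motif GGGCGG was in 18 of the 24 (75%), against 38.2% of genes. These matches describe letters in a window and were not tested as binding sites.

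Counts per cell ran from 176524 to 2118160, and sets held 6 to 71 cells and 2838610 to 79253014 counts. Each set is the sum of its cells, scaled to CPM (reads of a gene in a library scaled to one common total), so that its level joins the number of cells that express a gene with the RNA in each. At E14.5, for example, Chgb reached 10 CPM in 80.6% of Ngn3-GFPhigh cells and 4.81% of Ngn3-GFPlow cells. The reporters matched their labels at E15.5: Ins1-RFP+ sets had 25785 and 42041 CPM of Ins1 and at most 18.2 of Gcg, and Gcg-GFP+ sets had 52360 and 57359 CPM of Gcg and at most 102 of Ins1. Sox9-CreER;Rosa-RFP+ sets were led by the duct gene Spp1 at E17.5 (13224 and 19405 CPM), but at E16.5 they held the acinar gene Cpa1 at 10058 and 8606 CPM. The Ngn3-GFPlow sets stood apart from one another. At E13.5, replicate 1 had 0.0799 CPM of Gcg and 304 of Neurog3, whereas replicates 2 and 3 had 23011 and 42476 CPM of Gcg and 14.1 and 49.2 of Neurog3. At E14.5, replicate 3 had 6387 CPM of Gcg and replicate 5 had 304, while the others had at most 4.73. The summed level of 8 leukocyte markers was 5.6 to 15.3 CPM in Ngn3-GFPhigh and 976 to 8424 in Ngn3-GFPlow sets at E13.5, 18.9 to 35.9 and 6.99 to 9513 at E14.5, and 28.5 to 55.3 and 2742 to 4192 at E15.5. All 8 markers reached 10 CPM in Ngn3-GFPlow. Cells with at least 4 markers of a cell type outside the pancreatic epithelium at 100 CPM or more (195 of the 2195) were therefore left out in a second fit. That fit is given for the comparisons in which members called higher lost their calls. Early Ngn3-GFP+ sets had Neurog3 at 0.601 to 64.8 CPM and Gcg at 18599 to 41929 CPM, so they were led by glucagon and not by the sorted gene, and their leukocyte markers summed to 388 to 6499 CPM.

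Across all groups, the members did not share one peak. The granin Chgb was highest in Ngn3-GFPhigh cells of E14.5 (7363 ± 2396 CPM, SD, n = 3 sets) and E13.5 (7143 ± 994, n = 3), above Ins1-RFP+ (1945 ± 379, n = 2) and Gcg-GFP+ cells of E15.5 (2297 ± 885, n = 2). Those Ngn3-GFPhigh groups do not differ beyond their spread. The Rab effector Rph3al (592 ± 98.9 CPM), the Munc13 relative Baiap3 (640.1 ± 90.8) and the complexin Cplx2 (318 ± 118) also peaked in Ngn3-GFPhigh cells of E13.5. Ptprn2 (phogrin), a phosphatase-like protein of the granule membrane, was highest in Ngn3-GFPhigh cells of E15.5 (480 and 572 CPM). Pcsk1, Scg3, Rab3b, Rab27a and Vamp2 were highest in Ins1-RFP+ E15.5 cells, and Pam, Resp18, Rab3d, Snap25 and Stx1a in Gcg-GFP+ E15.5 cells. Chga, Scg2, Scg5, Ptprn, Cadps, Syt7 and Syt13 were highest in control explants, and Hid1, Rab3a and Sytl4 in explants with U0126. The single Gcg-GFP+ set of E17.5 had the highest Pcsk2 (4000 CPM), Pcsk1n (1750.9) and Cpe (5428).

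A few members peaked outside the Ngn3-GFPhigh, Ins1-RFP+ and Gcg-GFP+ sorts. Rab27b, a paralog of Rab27a, was highest in Sox9-CreER;Rosa-RFP+ cells of E17.5 (181 CPM) and lowest in Gcg-GFP+ cells of E17.5 (0.201 CPM). Syt5 peaked in Pdx1-GFP+ cells of E9.5 (66.1 CPM), Syt11 in Pdx1-Cre;Rosa-RFP+ cells of E13.5 (118 CPM), and Syt4 and Vgf in the glucagon-rich Ngn3-GFP+ cells of E10.5 (30.3 and 10.7 CPM). At the other end, Pam, Hid1, Rab3d, Rph3al, Vamp2, Cplx2 and Syt13 were at 10 CPM or more in all 29 groups. Vgf passed 10 CPM in 1 group and Syt4 in 8.

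**Figure D1:**
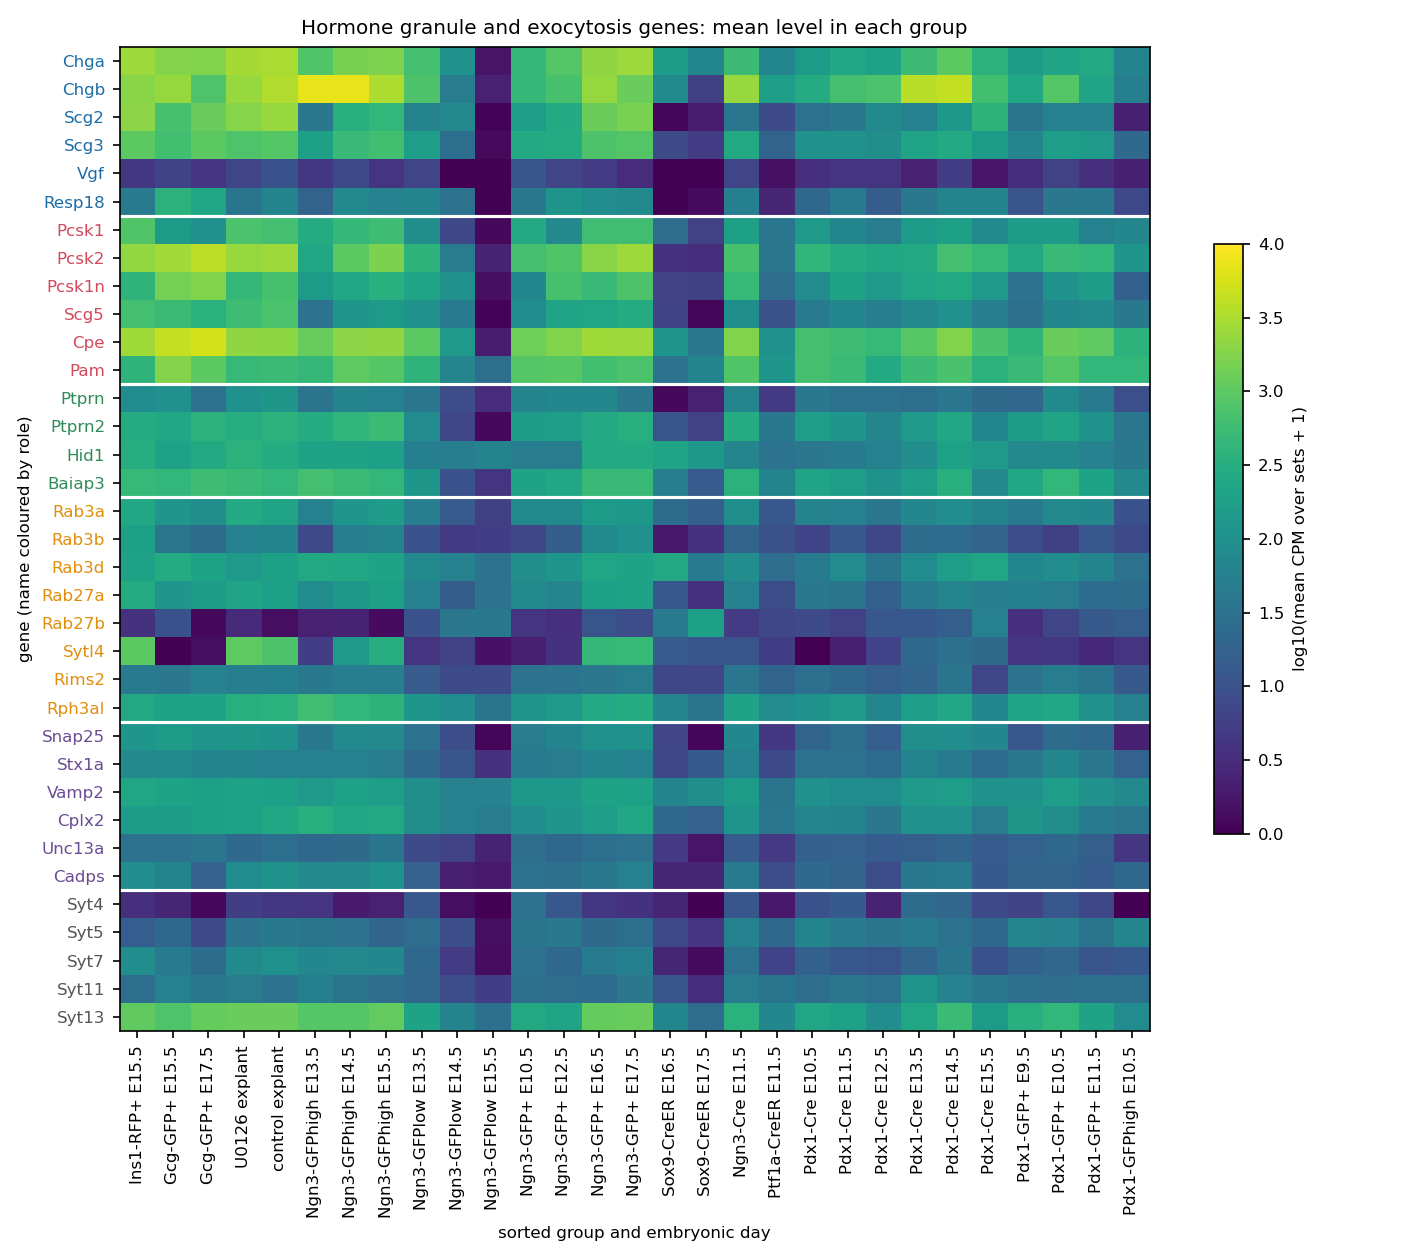
Mean CPM of the 35 members (rows, by role) in each of the 29 Smart-seq2 groups (columns), as log10 of mean CPM plus 1. Brighter cells are higher: Vamp2, Pam and Syt13 stay above 10 CPM throughout, Sytl4 spans 0.0183 CPM in Pdx1-Cre;Rosa-RFP+ cells of E10.5 to 1016 in explants with U0126, and Rab27b is brightest in Sox9-CreER;Rosa-RFP+ cells of E17.5 (181 CPM).

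Levels of different genes were compared per length, with the authors' TPM. In Ins1-RFP+ E15.5 cells the members ran in the order Chga (2173 TPM), Cpe (2027), Scg2 (1270) and Chgb (1173), and Sytl4 was in place 10 at 416. In Gcg-GFP+ E15.5 cells Cpe led (3574 TPM), ahead of Chga (1664), Chgb (1480.4) and Pcsk1n (1178), and Sytl4 was last of the 35 at 0.0314. In Ngn3-GFPhigh E13.5 cells Chgb stood far ahead at 5032 TPM, followed by Cpe (1057), Chga (833) and Rph3al (505). A single Ins1-RFP+ E15.5 cell had a median of 29 members at 10 CPM or more (set medians 28 to 30), and a Gcg-GFP+ cell 27.5 (27 to 28). Ngn3-GFPhigh cells had 19 (18 to 22) at E13.5, 26 (25 to 28) at E14.5 and 26.75 (26.5 to 27) at E15.5. Ngn3-GFPlow cells had 7 (4 to 24), 6 (2 to 7) and 5 (5 to 5) on the same days.

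The first comparison was Ngn3-GFPhigh with Ngn3-GFPlow at E13.5. It called 3 members higher and none lower by edgeR's quasi-likelihood test at an adjusted p of 0.05 over 18989 genes, of which 1.61% were higher and 4.61% lower. At an unadjusted p under 0.05 there were 9, all higher and none lower. Such counts are given here and below without the share of all genes, and are not read as results about the members. Rph3al (chr11:75830999-75938429), which binds Rab3 and Rab27, had 610.7, 680.2 and 485 CPM in the Ngn3-GFPhigh sets, against 136, 90.9 and 143 in the Ngn3-GFPlow sets (log2 fold change 2.15 ± 0.43, SE, edgeR adjusted p = 0.0108). Hid1 (chr11:115347707-115367756), which acts in granule formation at the Golgi, had 229, 215 and 184 CPM in Ngn3-GFPhigh, against 62.9, 35.9 and 56.6 in Ngn3-GFPlow (1.91 ± 0.34, edgeR adjusted p = 0.00663). Every Ngn3-GFPhigh set lay above every Ngn3-GFPlow set for both. The GTPase Rab3d had 283, 268 and 245 CPM in Ngn3-GFPhigh, against 38.4, 115 and 89.6 in Ngn3-GFPlow (1.57 ± 0.41, edgeR adjusted p = 0.0358), and lost its call when any 1 set other than Ngn3-GFPlow replicate 2 was left out (edgeR adjusted p up to 0.101). Without the cells carrying other markers none of the 3 was called, at edgeR adjusted p = 0.0919 for Hid1, 0.0645 for Rph3al and 0.509 for Rab3d.

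Granins and processing enzymes had no call at E13.5. Chgb had 6502, 6637 and 8288 CPM in Ngn3-GFPhigh, against 2.16, 389 and 1934 in Ngn3-GFPlow, with the Ngn3-GFPlow sets far apart (3.02 ± 1.68, edgeR adjusted p = 0.312). Pcsk2 had a mean of 241 ± 199 CPM in Ngn3-GFPhigh and 380.2 ± 330.5 in Ngn3-GFPlow, with overlapping sets (SD, n = 3 each). The Ngn3-GFPlow replicates with high Gcg are those with high granins: Chga was 7.83, 652 and 1237 CPM in replicates 1, 2 and 3. Pcsk1 (289 ± 79.5 CPM in Ngn3-GFPhigh and 92.4 ± 98.9 in Ngn3-GFPlow), Ptprn (33.4 ± 6.76 and 35.9 ± 30.7) and Rab27a (91.8 ± 36.2 and 56 ± 45.6) overlapped too. Ptprn2 did not overlap but was uncalled (303 ± 80.2 CPM in Ngn3-GFPhigh and 84.6 ± 75.1 in Ngn3-GFPlow). Sytl4 was scarce in both sorts, at 4.33 ± 4.11 CPM in Ngn3-GFPhigh and 3.06 ± 2.69 in Ngn3-GFPlow, as was Rab3b at 6.7 ± 4.2 and 9.32 ± 3.99.

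At E14.5 the difference between the sorts covered most of the list. Higher in Ngn3-GFPhigh were 20 of the 35 members, against 6.04% of all genes, and none was lower, against 9.01%. The median member was 2.93 higher on the log2 scale, while the median of all genes was -0.05. By role the calls took in 2 of 6 granins, 2 of 6 processing genes, 3 of 4 membrane and biogenesis genes, 7 of 8 Rab genes, 3 of 6 SNARE and priming genes and 3 of 5 synaptotagmins. All 20 had every Ngn3-GFPhigh set above every Ngn3-GFPlow set, but the share of all genes with sets apart in this way was not counted. They kept their calls when each of the 8 sets was left out in turn. Of the 20, 19 were called without the cells carrying other markers (Rab3a had an edgeR adjusted p of 0.0576 there).

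Among granins, Chgb (chr2:132781278-132795079), a calcium-binding core protein, had 9741, 4949 and 7400.2 CPM in the Ngn3-GFPhigh sets of E14.5, against 3.61, 2.56, 123, 2.63 and 110.8 in the Ngn3-GFPlow sets (6.92 ± 1.60, edgeR adjusted p = 0.00976). Its lowest Ngn3-GFPhigh set was far above the highest Ngn3-GFPlow set. Vgf, a scarce granin-like precursor, had 724 counts in all Ngn3-GFPhigh sets and 1 count in all Ngn3-GFPlow sets, a CPM ratio of 606 (counting interval 108 to 23961). Scg2 and Resp18 overlapped between the sorts, with single Ngn3-GFPlow sets high: Scg2 had 167, 525 and 356 CPM in Ngn3-GFPhigh, against 0, 0.0692, 59.4, 0.0875 and 320.9 in Ngn3-GFPlow.

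In the processing group, the convertase Pcsk1 (chr13:75089826-75134861) had 429, 440 and 492 CPM in Ngn3-GFPhigh at E14.5, against 8.11, 2.77, 21.2, 0 and 0 in Ngn3-GFPlow (5.91 ± 1.47, edgeR adjusted p = 0.014). Pam, which amidates peptide ends, averaged 1032 ± 686 CPM in Ngn3-GFPhigh (n = 3) and 65 ± 38.7 in Ngn3-GFPlow (n = 5; 3.72 ± 0.76, edgeR adjusted p = 0.00483). The second convertase, Pcsk2, did not pass, although its sets did not overlap (4.03 ± 1.56, edgeR adjusted p = 0.0943). For Scg5, the chaperone of Pcsk2, the sorts overlapped, with 75.6 to 152 CPM in Ngn3-GFPhigh and 0.175 to 145 in Ngn3-GFPlow.

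Ptprn2 had 435, 353 and 478 CPM in Ngn3-GFPhigh at E14.5, against 0.996, 1.45, 18.6, 0 and 9.34 in Ngn3-GFPlow (5.82 ± 1.17, edgeR adjusted p = 0.00437). Its paralog Ptprn was scarcer and uncalled (a mean of 63.8 CPM in Ngn3-GFPhigh and 7.69 in Ngn3-GFPlow, 2.76 ± 1.22, edgeR adjusted p = 0.139). All 3 Rab3 members rose in Ngn3-GFPhigh, Rab3b by 3.56, Rab3a by 2.96 and Rab3d by 1.88 on the log2 scale. Sytl4 (chrX:133936385-133981812), which binds Rab27a and docks granules, had 132, 204 and 75.8 CPM in Ngn3-GFPhigh, against 4.33, 6.23, 5.81, 9.71 and 0.0882 in Ngn3-GFPlow (4.60 ± 1.05, edgeR adjusted p = 0.00889). Rab27a was 3.10 ± 0.54 higher (edgeR adjusted p = 0.00191). Rab27b went the other way, with 0.0862, 0.53 and 3.58 CPM in Ngn3-GFPhigh, against 40.4, 42.4, 16.6, 69.1 and 21.9 in Ngn3-GFPlow, but just missed the threshold (-4.93 ± 1.62, edgeR adjusted p = 0.0519). Of the fusion genes, the priming factor Cadps (5.77 ± 0.85, edgeR adjusted p = 0.00074), Cplx2 (1.93 ± 0.43) and Vamp2 (1.64 ± 0.26) rose, whereas the plasma membrane SNAREs Snap25 and Stx1a did not pass. The calcium sensor Syt7 rose by 4.07 ± 0.67 and Syt13, a synaptotagmin that does not bind calcium, by 3.68 ± 0.64.

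**Figure D2:**
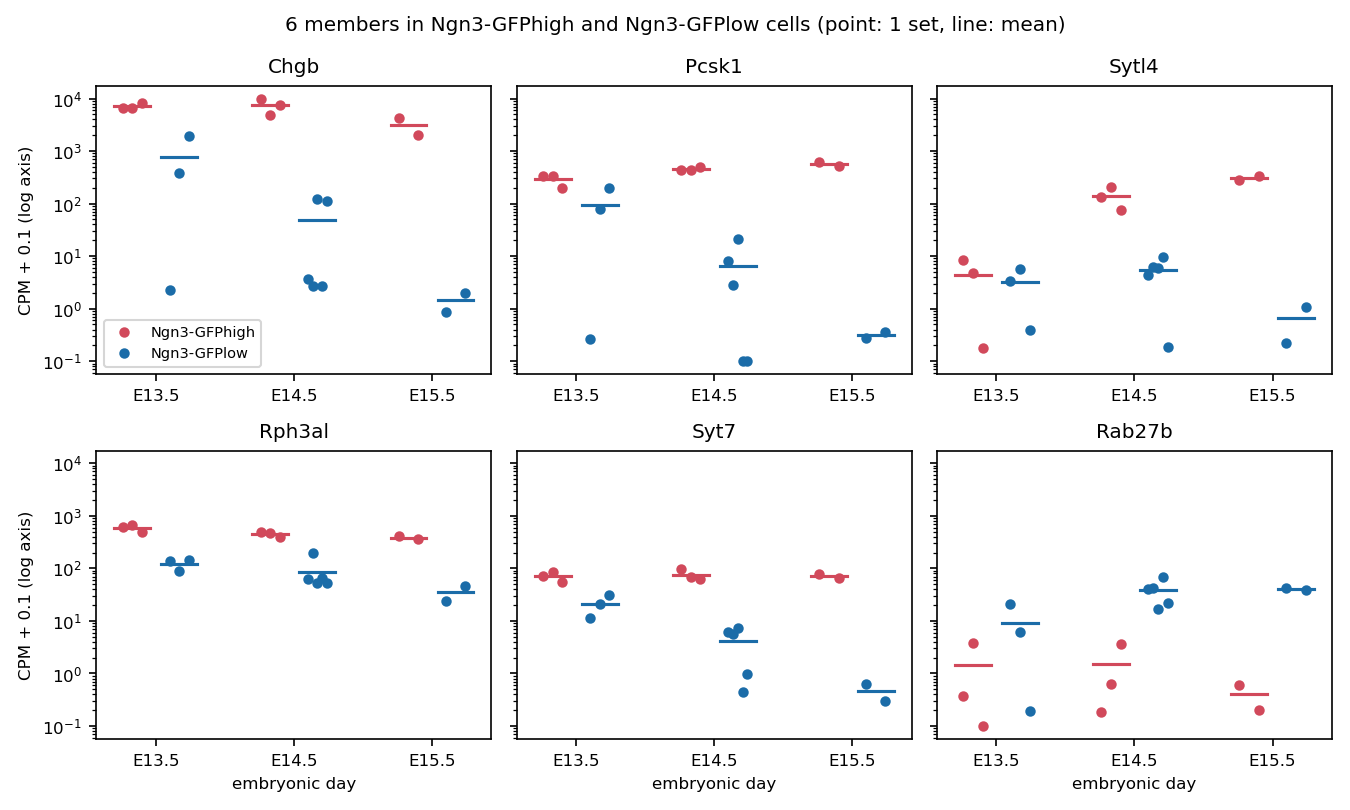
CPM plus 0.1 (log axis) of 6 members in every Ngn3-GFPhigh set (left of each pair) and Ngn3-GFPlow set on the 3 days from E13.5 to E15.5. For Chgb at E14.5 the Ngn3-GFPhigh sets lie between 4949 and 9741 CPM and the Ngn3-GFPlow sets at 123 or less, and Rab27b is the panel in which Ngn3-GFPlow lies above at E14.5 and E15.5.

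At E15.5, with 2 sets a side, 18 members were higher in Ngn3-GFPhigh, against 3.4% of all genes, and none was lower, against 5.58%. At an unadjusted p under 0.05 there were 33, of which 32 were higher. The share of all genes under that p is not given, so the 33 is not read as a result about the members. Of the 20 members called at E14.5 and the 18 called at E15.5, 16 were shared, 80% and 88.9% of the lists. Pcsk1 had 627 and 510 CPM in Ngn3-GFPhigh, against 0.178 and 0.265 in Ngn3-GFPlow (11.19 ± 2.92, edgeR adjusted p = 0.0285). Chgb had 4347 and 2029 CPM in Ngn3-GFPhigh, against 0.771 and 1.92 in Ngn3-GFPlow (11.07 ± 2.94, edgeR adjusted p = 0.0305). Ptprn2 had 480 and 572 CPM in Ngn3-GFPhigh, against 0.119 and 0.331 in Ngn3-GFPlow (11.07 ± 2.31, edgeR adjusted p = 0.0109). All 3 were thus near absent in Ngn3-GFPlow. The calls of Pcsk1 and Chgb were lost whichever set was left out, and that of Ptprn2 without either Ngn3-GFPlow set (edgeR adjusted p up to 0.0875).

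The firmest calls at E15.5 were a Rab effector and a calcium sensor. Rph3al had 414 and 356 CPM in Ngn3-GFPhigh, against 23.9 and 46.7 in Ngn3-GFPlow (3.31 ± 0.55, edgeR adjusted p = 0.0033). Syt7 (chr19:10389090-10453180) had 78.8 and 65.9 CPM in Ngn3-GFPhigh, against 0.534 and 0.198 in Ngn3-GFPlow (7.49 ± 1.22, edgeR adjusted p = 0.00297). Both stayed called without any 1 set, with edgeR adjusted p up to 0.0355 and 0.0424. The count of called members was 6 without Ngn3-GFPhigh replicate 1, 8 without Ngn3-GFPhigh replicate 2, and 4 without Ngn3-GFPlow replicate 1 or 2. Without the cells carrying other markers 8 members were called, 7 of them among the 18 (Ptprn2, Sytl4, Rph3al, Cadps, Syt7, Syt11 and Syt13). Pcsk1, Chgb, Rab3a and Rab3d were among those that lost their calls there. Several members were at or near 0 in Ngn3-GFPlow: Resp18 had 3025 counts in Ngn3-GFPhigh and none in Ngn3-GFPlow, at least 657-fold higher when 3 counts are taken as the floor of the whole group. Scg2 had 22297 counts in Ngn3-GFPhigh and 3 in Ngn3-GFPlow, a CPM ratio of 4845 (counting interval 1658 to 23495). Neither Resp18 nor Scg2 was among the 18 called members. With fold changes at their bound where the lower group held no count, the median member was 5.42 higher (log2), against 6.30 as fitted and 0.00 over all genes. Chga (1680.7 ± 253 CPM in Ngn3-GFPhigh and 0.644 ± 0.492 in Ngn3-GFPlow) and Pcsk2 (1636 ± 32.9 and 1.5 ± 0.69) narrowly missed the threshold, with edgeR adjusted p of 0.0534 and 0.0555, as did Rab3b (0.0533) and Rab27a (0.062). Rab3a rose by 4.91 ± 1.16 and Rab3d by 2.48 ± 0.52 on the log2 scale. Rab27b was again below, at 0.498 and 0.104 CPM in Ngn3-GFPhigh, against 42.6 and 39.4 in Ngn3-GFPlow (-7.25 ± 2.30, edgeR adjusted p = 0.0624).

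Whether the gap between the sorts differed between days was tested as an interaction, E14.5 and E15.5 minus E13.5. No member was called, against 0.19% of all genes called higher and 0.0685% lower, while 24 had an unadjusted edgeR p under 0.05, all with a wider gap later. The share of all genes under that p is not given, so the 24 is not read as a result about the members. DESeq2 called 15 and limma 2. The smallest edgeR adjusted p belonged to Syt7 (0.107, with a change of 4.16 on the log2 scale). For the 3 members called at E13.5 the change was small, -0.29 ± 0.41 for Hid1, 0.61 ± 0.51 for Rab3d and 0.63 ± 0.52 for Rph3al. One set decided the count: without Ngn3-GFPlow E13.5 replicate 1, which lacked Gcg, 10 members were called. Without Ngn3-GFPlow E14.5 replicate 4 or Ngn3-GFPlow E15.5 replicate 1 the count was 1.

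Within Ngn3-GFPhigh cells, E15.5 was compared with E13.5, using the same sets as the comparisons of sorts above. No member passed in edgeR, against 0.0421% of all genes higher and 0.0527% lower, with 2 at an unadjusted p under 0.05. DESeq2 called 2 higher and limma 1. The members called by DESeq2 were from the Rab group, and beta cell markers moved with them: these summed to 19934 to 29565 CPM at E15.5 and 733 to 1110 at E13.5, with Ins2 at 7300.3 and 11150.3 CPM at E15.5, against 2.25, 130.3 and 51.7 at E13.5. Their part was not tested. Sytl4 had 278 and 332 CPM at E15.5, against 8.27, 4.64 and 0.0741 at E13.5 (6.12 ± 1.42, edgeR adjusted p = 0.129, DESeq2 adjusted p = 0.000289). Rab3b had 61.9 and 58.6 CPM at E15.5, against 6.24, 11.1 and 2.74 at E13.5 (3.20 ± 0.95, edgeR adjusted p = 0.269, DESeq2 adjusted p = 0.0157). The median member was 0.81 higher at E15.5 on the log2 scale, against -0.03 over all genes. Several members lay higher in every E15.5 set than in every E13.5 set, without a call. Among them were Pcsk2 (1660 and 1613 CPM at E15.5, against 73.3, 461 and 189) and Chga (1859 and 1502, against 549, 1125 and 822). Chgb, Rph3al, Baiap3, Rab3d, Syt5 and Syt11 had lower values in every E15.5 set, also without a call. Rph3al averaged 385 ± 41.1 CPM at E15.5 (n = 2) and 592 ± 98.9 at E13.5 (n = 3). The share of all genes with sets apart in this way was not counted.

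Between insulin and glucagon cells of E15.5, with 2 sets a side, few members were called. Members without a call are not thereby shown to be alike. Ins1-RFP+ cells were higher in 2 members and lower in 1 than Gcg-GFP+ cells, against 0.335% of 17595 genes higher and 0.358% lower, with 9 members at an unadjusted p under 0.05. The median member differed by 0.30 on the log2 scale. The mouse lines of the 2 sorts differ, so that line and cell type cannot be told apart. Sytl4 had 1055 and 887 CPM in the Ins1-RFP+ sets, against 0.0577 and 0.0711 in the Gcg-GFP+ sets. That is 42781 counts in Ins1-RFP+ and 3 in Gcg-GFP+, a CPM ratio of 13950 (counting interval 4773 to 67646; edgeR adjusted p = 0.016). Its call was lost in 3 of 4 fits that left out a set, all but the one without Ins1-RFP+ replicate 2 (edgeR adjusted p up to 0.0715), although no set came near the other group. In single cells, 94.9% of Ins1-RFP+ cells reached 10 CPM of Sytl4.

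The 2 other calls concerned a convertase and a granule protein. Pcsk1 had 813 and 845 CPM in Ins1-RFP+, against 195 and 108 in Gcg-GFP+ (2.62 ± 0.43, edgeR adjusted p = 0.0364). Resp18 (chr1:75272199-75278415), an endocrine-specific luminal protein, had 43.6 and 40.7 CPM in Ins1-RFP+, against 309 and 432 in Gcg-GFP+ (-2.99 ± 0.48, edgeR adjusted p = 0.0402). The groups do not overlap for either gene, but both calls were lost whichever set was left out, with edgeR adjusted p up to 0.154 for Pcsk1 and 0.238 for Resp18. The paralogs of the GTPases were split, Rab3d at 192 ± 1.89 CPM in Ins1-RFP+ and 289 ± 26.8 in Gcg-GFP+ and Rab27b at 2.91 ± 3.96 in Ins1-RFP+ and 9.19 ± 1.23 in Gcg-GFP+, neither called. Pcsk2, which with Pcsk1 completes prohormone cutting, did not separate the sorts (2275 ± 465 CPM in Ins1-RFP+ and 2765 ± 368 in Gcg-GFP+, SD, n = 2 each; -0.12 ± 0.43).

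Other members had groups that did not overlap but no call. How many of all genes had groups apart in this way was not counted, so these gaps are not read as differences between the cell types. Pam had 300.5 and 499 CPM in Ins1-RFP+, against 2068 and 1563 in Gcg-GFP+ (-2.02 ± 0.61, edgeR adjusted p = 0.207, DESeq2 adjusted p = 0.00489). Pcsk1n, the source of an inhibitor of Pcsk1, had 342 and 450.3 CPM in Ins1-RFP+, against 1461 and 1420.3 in Gcg-GFP+ (-1.71 ± 1.01). On the Ins1-RFP+ side stood Rab3b (173 and 182 CPM, against 26.1 and 47.4 in Gcg-GFP+), Scg2 (2093 and 1933, against 663 and 720.6), Rab27a (290.2 and 295, against 160 and 86) and Rab3a (248 and 226, against 123 and 120), with edgeR adjusted p between 0.28 and 0.388. For the core fusion genes the difference was -0.19 ± 0.91 for Snap25, 0.04 ± 1.26 for Stx1a and 0.30 ± 0.29 for Vamp2, and Chga (0.69 ± 0.49) and Chgb (-0.10 ± 0.58) overlapped. The single Gcg-GFP+ set of E17.5 had 0.403 CPM of Sytl4, 104 of Pcsk1, 228 of Resp18, 967 of Pam and 1750.9 of Pcsk1n. Its CPM were nearer to the Gcg-GFP+ sets of E15.5 than to the Ins1-RFP+ sets for these genes except Pam, which lay between the groups and nearer to Ins1-RFP+.

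**Figure D3:**
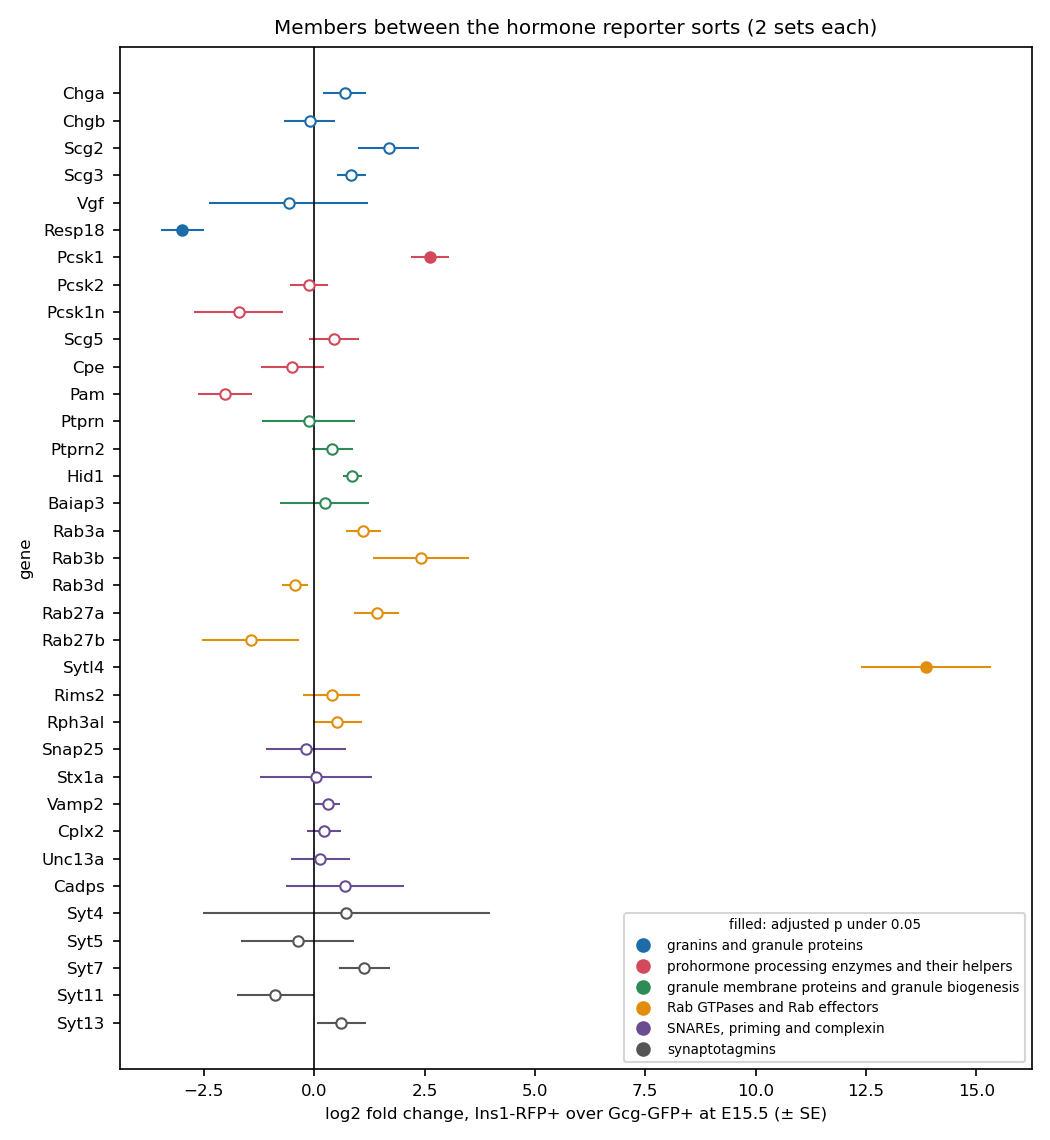
Log2 fold change of each member, Ins1-RFP+ over Gcg-GFP+ cells of E15.5, with its SE from the edgeR fit and filled points for an adjusted p under 0.05. The filled points are Sytl4 (13.85), Pcsk1 (2.62) and Resp18 (-2.99), and the uncalled members lie on both sides of 0.

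Droplet library 2, of E14.5 and not E15.5, gave a related contrast without a reporter. In it an Ins2-led cluster (133 cells, leading genes Ins2, Ins1 and Npy) and a Gcg-led cluster (266 cells, Gcg, Ghrl and Tmem27) were found by clustering without the members. Gast, Pyy and Ppy were also among the leading genes of the Gcg-led cluster, so it need not match the Gcg-GFP+ sort. Sytl4 had 286 CPM of UMIs (95% Poisson interval 251 to 324) in the Ins2-led cluster, against 12.3 (7.28 to 19.4) in the Gcg-led one. Pcsk1 had 138 (114 to 165) in the Ins2-led cluster, against 42.3 (32.4 to 54.2) in the Gcg-led one. Resp18 had 98.8 (78.8 to 122) in the Ins2-led cluster, against 190 (168 to 213) in the Gcg-led one. All 3 lay in the same direction as in the sorted cells, with Resp18 at a ratio of 0.52. Pcsk1n (ratio 0.421) and Pam (0.662) were also below 1, and Rab3a (2.4) and Rab3b (2.18) above it. Those libraries are single samples, so no test was made and the intervals cover counting error only. With coarser clusters no Ins2-led class stood apart, and a single Gcg-led class of 518 cells had 95.5 of Sytl4. In library 1 one cluster held both hormones, so the contrast could not be formed there.

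Both hormone sorts of E15.5 together were set against Ngn3-GFPhigh cells of the same day, all of them sets used above. These sorts also come from different mouse lines, so line and cell type cannot be told apart. edgeR called no member, against 0% of all genes higher and 0.0284% lower, with 7 at an unadjusted p under 0.05 (5 higher, 2 lower), and DESeq2 called 2 higher and 1 lower. Scg5 had the clearest gap among the granule contents, at 584 ± 157 CPM in the hormone sorts (n = 4) and 150.6 ± 35.8 in Ngn3-GFPhigh (n = 2; 1.99 ± 0.54, edgeR adjusted p = 0.295). Scg2 averaged 1353 ± 766 CPM in the hormone sorts and 438 ± 133 in Ngn3-GFPhigh. Ptprn2 ran the other way, at 267 ± 40.5 CPM in the hormone sorts and 480 and 572 in the Ngn3-GFPhigh sets, with every hormone set below. Since the hormone sorts lie on opposite sides for Sytl4, its fitted mean (-5.13) has the opposite sign to the difference of mean CPM (485 in the hormone sorts and 305 in Ngn3-GFPhigh).

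Ngn3-GFP+ cells allowed late (E16.5 and E17.5, 8 sets) to be compared with early endocrine cells (E10.5 and E12.5, 6 sets), the early ones being described by the study as a first wave. Higher in late cells were 17 members, against 8.29% of 19059 genes, and none was lower, against 11.4%. A further 2 members were lower at an unadjusted p under 0.05. By role 3 granins, 3 processing genes, 1 biogenesis gene, 6 Rab genes, 3 fusion genes and 1 synaptotagmin rose, and the median member was 1.04 higher on the log2 scale. Without the cells carrying other markers 8 were higher (Scg2, Pcsk1, Pcsk2, Hid1, Rab3b, Rab27a, Sytl4 and Syt13) and Syt4 was lower. Leukocyte markers summed to 24.5 to 687 CPM in late sets and 388 to 6499 in early ones. The 9 beta cell markers summed to 18970 to 155680 CPM in late sets and 692 to 1734 in early ones, with Ins2 at 6010 to 74481 CPM in late sets and 1.65 to 29.7 in early ones. The part of either in the changes of members, such as Sytl4 and Rab3b, was not tested.

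Sytl4 showed the widest change. Its lowest, median and highest CPM were 180.7, 476 and 810.2 in late sets, against 0, 2.11 and 3.48 in early sets (8.07 ± 0.73, edgeR adjusted p = 9.94e-06). Rab3b had 35.4, 93.5 and 162 CPM in late sets, against 0.667, 9.72 and 23.5 in early sets (3.40 ± 0.73, edgeR adjusted p = 0.00493). Scg2 had 687, 1081 and 2438 CPM in late sets, against 88.9, 240.6 and 365 in early sets (2.79 ± 0.51, edgeR adjusted p = 0.00174). No late set reached down to an early one for any of these. Hid1 had 203, 273 and 384 CPM in late sets, against 29.2, 49.6 and 63.2 in early sets (2.61 ± 0.20, edgeR adjusted p = 4.52e-06). Syt13 rose by 2.35 ± 0.34 (edgeR adjusted p = 0.000324) and Rab27a by 1.49 ± 0.22 (edgeR adjusted p = 0.000381). Of the convertases, Pcsk2 had 1430.4, 2464 and 2943 CPM in late sets, against 394, 789 and 893 in early sets (1.73 ± 0.28, edgeR adjusted p = 0.000694), and Pcsk1 rose by 2.14 ± 0.53 with overlapping sets (edgeR adjusted p = 0.011).

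Some calls rested on few sets. Leaving out 1 set ended the call of Chga in 10 of 14 fits (edgeR adjusted p up to 0.0864), of Cplx2 in 9 (up to 0.109) and of Pcsk1n in 7 (up to 0.0765), early and late sets among them. Rab3d and Rph3al lost theirs without Ngn3-GFP+ E12.5 replicate 1 (edgeR adjusted p = 0.056 and 0.0504). The other calls were Scg3 (1.59 ± 0.43), Rab3a (1.00 ± 0.25), Snap25 (1.06 ± 0.28) and Vamp2 (0.65 ± 0.16). Members without a call included Chgb (1769 ± 902 CPM late and 580.5 ± 309 early, edgeR adjusted p = 0.0861), Pam (-0.30 ± 0.29), Resp18 (0.43 ± 0.40) and Ptprn (-0.25 ± 0.38). On the early side, Syt4 averaged 3.16 ± 1.8 CPM in late and 20.6 ± 12.3 in early sets (-2.50 ± 0.85, edgeR adjusted p = 0.0534, and 0.0135 without the cells carrying other markers). Vgf averaged 3.14 ± 1.84 CPM in late and 8.29 ± 4.13 in early sets (-1.33 ± 0.52, edgeR adjusted p = 0.0904).

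**Figure D4:**
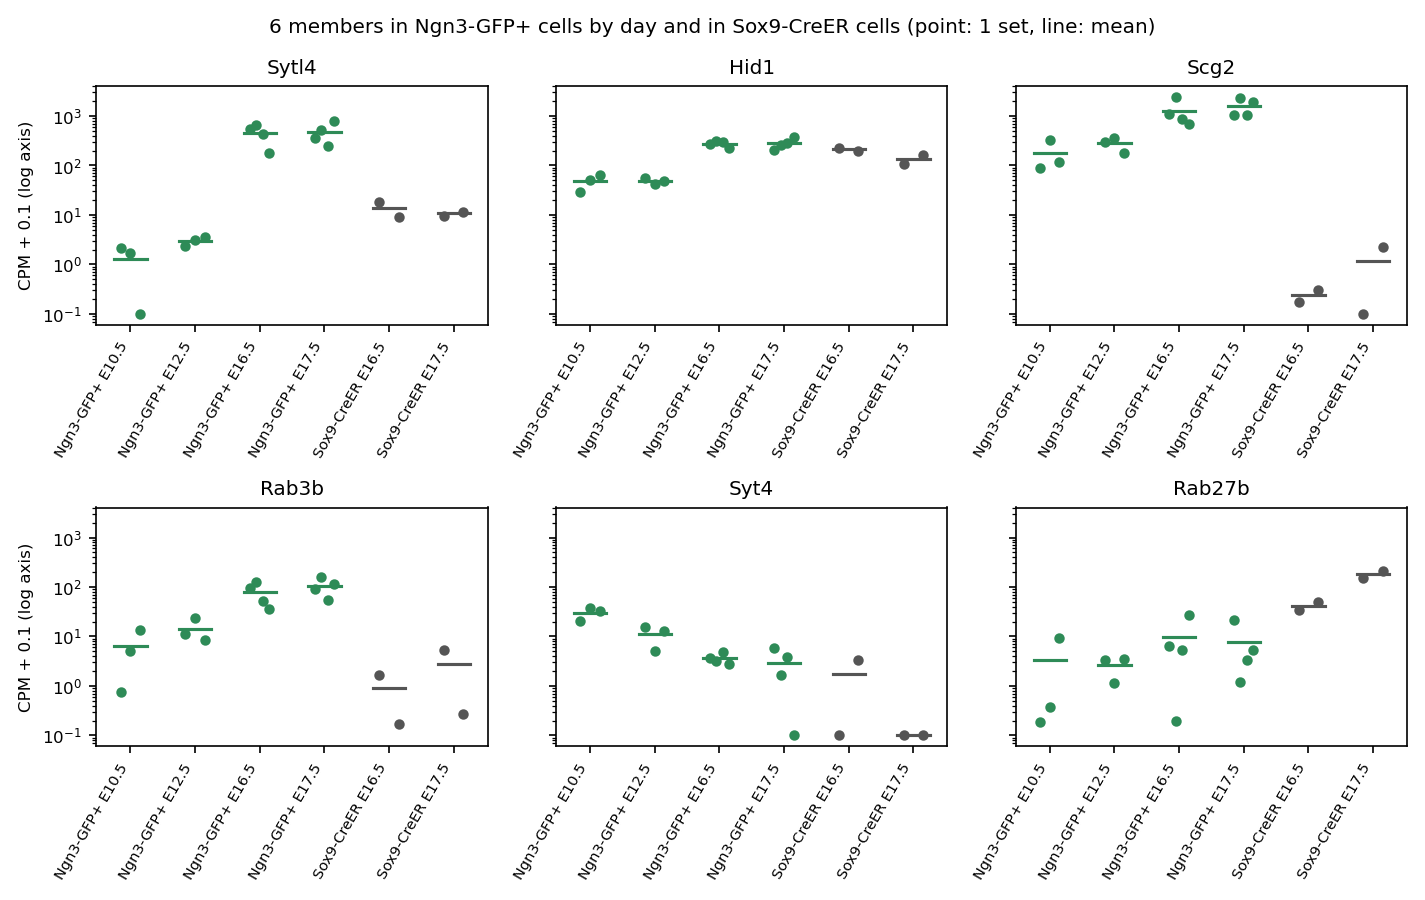
CPM of 6 members in each Ngn3-GFP+ set at E10.5, E12.5, E16.5 and E17.5, and in Sox9-CreER;Rosa-RFP+ sets at E16.5 and E17.5 (log axis), with the mean of each group as a line. Sytl4, Hid1, Scg2 and Rab3b are higher in every late Ngn3-GFP+ set than in every early one, Syt4 is lower on average, and Rab27b is lower in Ngn3-GFP+ than in Sox9-CreER;Rosa-RFP+ sets.

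Against Sox9-CreER;Rosa-RFP+ cells of E16.5 and E17.5 (4 sets), Ngn3-GFP+ cells of the same days (8 sets) were higher in 33 of 35 members, against 13.6% of all genes. They were lower in 1, against 11.4% of all genes. The median member was 5.01 higher and the median gene 0.17 on the log2 scale. The late Ngn3-GFP+ sets are those of the comparison above, and the mouse lines differ, so that line and cell type cannot be told apart. Scg2 (chr1:79434669-79440120) had at most 2.16 CPM in any Sox9-CreER;Rosa-RFP+ set, and its lowest Ngn3-GFP+ set had 687 (11.76 ± 0.98, edgeR adjusted p = 1.56e-06). Resp18 had 27, 74.8 and 148 CPM as lowest, median and highest in Ngn3-GFP+, against 0, 0, 0 and 0.604 in Sox9-CreER;Rosa-RFP+ (11.11 ± 0.96, edgeR adjusted p = 3.73e-06). For Pcsk2 the Sox9-CreER;Rosa-RFP+ sets had 2.14, 3.5, 0.703 and 3.88 CPM (9.75 ± 0.50, edgeR adjusted p = 2.79e-08). Vgf had 679 counts in Ngn3-GFP+ and none in Sox9-CreER;Rosa-RFP+, at least 50.6-fold higher. These granule contents were all but missing from the Sox9-CreER;Rosa-RFP+ sets. Chga (4.47 ± 0.86), Chgb (6.37 ± 1.00), Pcsk1 (5.67 ± 0.77), Ptprn (6.57 ± 0.65) and Ptprn2 (5.32 ± 0.69) were higher as well, without overlap between sets.

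Of the 8 Rab genes and effectors 6 were higher and 1 lower, and all 6 genes of the SNARE, priming and complexin group were higher. Vamp2 averaged 196 ± 39.6 CPM in Ngn3-GFP+ (SD, n = 8) and 78 ± 17.6 in Sox9-CreER;Rosa-RFP+ (n = 4), a log2 difference of 1.31 ± 0.19 (edgeR adjusted p = 0.000213). Hid1 averaged 278 ± 55.8 CPM in Ngn3-GFP+ and 174 ± 50.8 in Sox9-CreER;Rosa-RFP+ (0.67 ± 0.21, edgeR adjusted p = 0.0325), a call lost without Ngn3-GFP+ E16.5 replicate 3 or E17.5 replicate 4 or without Sox9-CreER;Rosa-RFP+ E16.5 replicate 2 or E17.5 replicate 1 (edgeR adjusted p up to 0.155). Rab3d, which also serves zymogen granules of acinar cells, missed the threshold (0.95 ± 0.34, edgeR adjusted p = 0.0503). Its Sox9-CreER;Rosa-RFP+ sets had 285 and 231 CPM at E16.5, where Cpa1 was high, and 25.5 and 60.5 at E17.5. Syt4 was called higher, at 3.16 ± 1.8 CPM in Ngn3-GFP+ and 0.805 ± 1.61 in Sox9-CreER;Rosa-RFP+, but lost the call in 7 of 12 fits that left out a set (edgeR adjusted p up to 0.129). Rab27b was the member that fell: 0.0937, 5.27 and 27.2 CPM were its lowest, median and highest in Ngn3-GFP+, against 34.5, 48.6, 149 and 213 in Sox9-CreER;Rosa-RFP+ (-3.44 ± 1.00, edgeR adjusted p = 0.0204). Every Ngn3-GFP+ set lay below every Sox9-CreER;Rosa-RFP+ set, but the call was lost without Sox9-CreER;Rosa-RFP+ E16.5 replicate 1 or 2 or E17.5 replicate 2 (edgeR adjusted p up to 0.0686), and DESeq2 did not make it. Its paralog Rab27a went the opposite way, at 190.4 ± 38.4 CPM in Ngn3-GFP+ and 7.15 ± 5.98 in Sox9-CreER;Rosa-RFP+ (5.01 ± 0.32, edgeR adjusted p = 1.81e-07).

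In the mixed Pdx1-Cre;Rosa-RFP+ lineage 6 members rose with embryonic day between E10.5 and E15.5, against 3.54% of 18710 genes, and none fell, against 1.8%. Hid1 rose by 0.55 ± 0.07 per day on the log2 scale (edgeR adjusted p = 6.82e-05), with means of 36.9, 41.5, 55.9, 89, 193 and 140 CPM from E10.5 to E15.5. Scg2 rose by 0.71 ± 0.14 per day (edgeR adjusted p = 0.00442), with 39.2 and 24.2 CPM at E10.5 and 176, 739 and 230.8 at E15.5. Rab27b rose by 0.61 ± 0.12 (edgeR adjusted p = 0.00276), with 8.96 and 5.28 CPM at E10.5 and 60.2, 54 and 46.4 at E15.5. It did so in the lineage that includes duct and acinar cells. Rab3d rose by 0.52 ± 0.10 (edgeR adjusted p = 0.00212), reaching 231 ± 72.1 CPM at E15.5 (SD, n = 3), where Cpa1 averaged 8103 CPM. The calls of Snap25 (0.56 ± 0.16, edgeR adjusted p = 0.0409) and Chga (0.51 ± 0.14, edgeR adjusted p = 0.0282) were weaker, the Snap25 call being lost in 11 of 19 fits without 1 set (edgeR adjusted p up to 0.112). Snap25 had 18 and 18.5 CPM at E10.5 and 8.58, 53 and 150 at E15.5, which overlap. The call of Chga was lost without E10.5 replicate 1 or 2 (edgeR adjusted p up to 0.0671). Chgb, at 288 ± 34.1 CPM at E10.5, 4270 ± 2990.3 at E14.5 and 621 ± 393 at E15.5, followed no straight line.

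Adding U0126 to explants called no member in edgeR among the 34 tested, and 0% of 12632 genes were higher and 0% lower. At an unadjusted p under 0.05 there were 4 members (2 higher, 2 lower), each with an edgeR adjusted p of 1, and DESeq2 and limma called none. Sytl4 had 867, 897, 1254 and 1048 CPM with U0126, against 598, 776, 863 and 792 in controls (0.44 ± 0.18), the only member tested whose groups did not overlap. How many of all genes had groups apart in this way was not counted. Pcsk1n had 439, 617, 360.4 and 423 CPM with U0126, against 760, 656, 607 and 723 in controls (-0.56 ± 0.17). Chgb had 3018, 2418, 2289 and 1924 CPM with U0126, against 2530.9, 4114, 3719 and 2972 in controls (-0.46 ± 0.17). Rab3a had 320, 286, 277 and 244 CPM with U0126, against 269, 206, 187 and 205 in controls (0.40 ± 0.15). Of the convertases, Pcsk1 averaged 739 ± 113 CPM with U0126 and 630 ± 185 in controls, and Pcsk2 averaged 2440 ± 187 with U0126 and 2554 ± 487 in controls (SD, n = 4 each), neither called. SEs of the other tested members ran up to 1.17 on the log2 scale, for the scarce Syt4, so small changes could not be told from the spread between sets. The median member differed by -0.13. Rab27b was too low to test.

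In the droplet libraries, clusters led by hormone genes were set against clusters led by Neurog3, all of them formed without the members. The libraries are 2 samples of 1 stage, so these are values without a test. In library 1 the cluster led by Gcg, Ghrl and Pyy (162 cells) was set against that led by Neurog3, Pax4 and Gpx2 (95 cells), and in library 2 the mean of the Ins2-led and Gcg-led clusters against that led by Pax4, Tgm7 and Neurog3 (266 cells). The Neurog3-led clusters were unlike: among its 10 leading genes the one of library 1 had 3 endocrine progenitor and 0 late precursor markers, and the one of library 2 had 2 and 4, Fev and Neurod1 included. Summed over members, the hormone-led clusters had 7993 CPM of UMIs in library 1 and 9630 and 7034 in library 2, and these Neurog3-led ones 3313 and 7802. Another cluster of library 2, led by Neurog3, Grin3a and Gadd45a, had 1821. Acinar-like clusters had 148 and 207, trunk- or duct-like clusters 185 and 217 and leukocyte-like clusters 94.3 and 114, while neural- or glial-like clusters reached 1196 and 1735.

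Members higher in the hormone-led clusters of both libraries came from several roles. Pcsk2 had 1384 CPM in the hormone-led cluster of library 1, against 38.2 in the Neurog3-led one, and a ratio of 3.77 in library 2. Scg2 had 114 (95% Poisson interval 98.8 to 131) in the hormone-led cluster of library 1, against 0 in the Neurog3-led one, and 266 against 20.7 in library 2. Resp18 had 153 in the hormone-led cluster of library 1, against 0 in the Neurog3-led one, and a ratio of 7.85 in library 2. Scg5 (ratios 28.7 and 3.47), Ptprn (33.9 and 6.57) and Pcsk1n (12.3 and 3.21) were also above 1 in both libraries, as were Rab3a (4.07 and 2.22), Vamp2 (2.49 and 1.82) and the priming factor Cadps (2.71 and 1.42). Below 1 in both were Rph3al and Rab3d. Rph3al had 245 in the hormone-led cluster of library 1, against 425 in the Neurog3-led one, and 233 against 510.0 in library 2. Rab3d had ratios of 0.872 and 0.93. Chgb had a ratio of 1.75 in library 1 and 0.504 in library 2. Against a second cluster of library 2, led by Neurog3, Grin3a and Gadd45a (213 cells), all ratios but that of Rab27b (0.437) were above 1, with Rph3al at 1.48, Rab3d at 2.86 and Chgb at 3.08. Which Neurog3-led cluster is taken therefore decides the side of these 3, among others, in library 2. Among the acinar-, duct-, neural-, leukocyte- and endothelium-like and the endocrine clusters, Rab27b was highest in the trunk- or duct-like ones in both libraries. It had 8.41 (6.13 to 11.2) and 23.3 (18.7 to 28.8) CPM there, against 3.93 to 6.82 in the hormone-led clusters. The cluster led by Neurog3, Grin3a and Gadd45a had 13.2. Leukocyte-like clusters had 4.56 (1.67 to 9.93) and 13.6 (7.93 to 21.8).

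**Figure D5:**
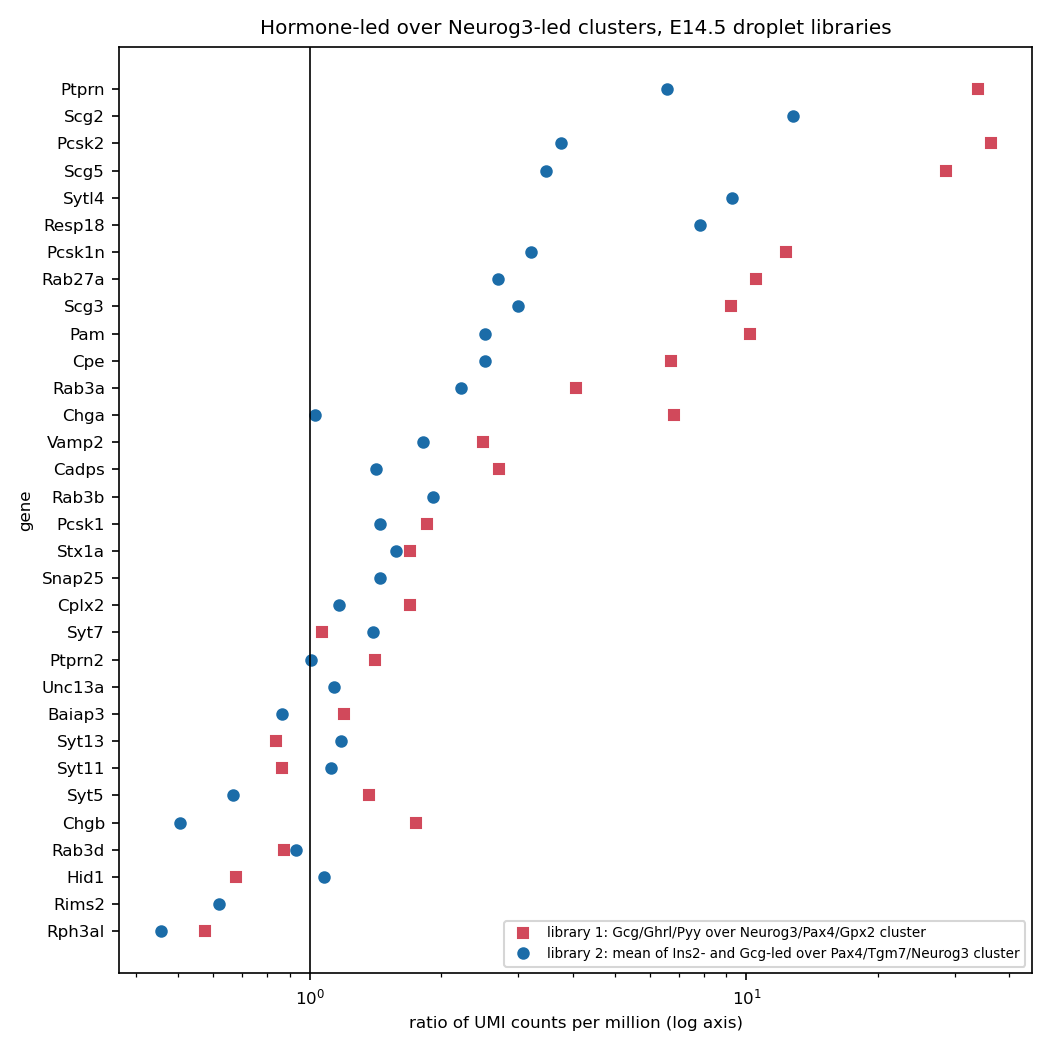
Ratio of UMI CPM, hormone-led over Neurog3-led clusters (log axis), for members with enough counts in library 1 (25 members) and library 2 (32 members), with the hormone-led cluster on top of the ratio. Pcsk2, Scg5, Ptprn and Pcsk1n lie to the right of 1 in both libraries. Rph3al and Rab3d lie to the left of it in both, Rab3d close to 1.

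Other genes of the pathway were followed as a list of 44 that shares no gene with the members. At E14.5 Ngn3-GFPhigh was higher in 5 of them, among them Sytl5, Rab3c, Hap1 and Kif1a, against 6.04% of all genes, and lower in 1, against 9.01%. The vesicle SNARE Vamp8, known from zymogen granules, was lower (-0.85 on the log2 scale, edgeR adjusted p = 0.0103), a call lost without Ngn3-GFPhigh E14.5 replicate 1 (0.0504) and without the cells carrying other markers (0.162). Of the list, at E15.5 there were 6 higher, against 3.4% of all genes, and 0 lower, against 5.58%. Late Ngn3-GFP+ cells were higher than early ones in 10, against 8.29% of all genes, among them the calcium-binding Scgn (4.48, edgeR adjusted p = 0.00169) and the granule peptide precursor Nucb2 (2.63, edgeR adjusted p = 0.000302). They were lower in Snap23, a broadly used SNARE (-0.74, edgeR adjusted p = 0.00926), Rims1 and Unc13d, against 11.4% of all genes. Against Sox9-CreER;Rosa-RFP+ cells 18 were higher, against 13.6% of all genes, with Scgn at 7.57 (edgeR adjusted p = 0.000286). The priming factor Unc13d was lower (-0.94, edgeR adjusted p = 0.0278), against 11.4% of all genes. Its call was lost in 5 of 12 fits without 1 set (edgeR adjusted p up to 0.285). In the Pdx1-Cre;Rosa-RFP+ lineage Nucb2, Scgn, Rab26, Vamp3 and Vamp8 rose per day, against 3.54% of all genes. None of those tested was called between Ins1-RFP+ and Gcg-GFP+ cells, against 0.335% of all genes higher and 0.358% lower. None was called between U0126 and control explants either, against 0% of all genes. Rest, a repressor of neuronal and exocytosis genes, averaged 1.67 CPM in Ngn3-GFPhigh and 88.7 in Ngn3-GFPlow at E14.5 (-5.89, edgeR adjusted p = 0.00953). At E15.5 it averaged 0.0518 CPM in Ngn3-GFPhigh and 120 in Ngn3-GFPlow (edgeR adjusted p = 0.0101), a call lost without either Ngn3-GFPhigh set (edgeR adjusted p up to 0.0965).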

How the data were processed

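Per the labels' protocols, sorted single cells were amplified by Smart-seq2 and sequenced. Read counts and TPM per gene and cell were made and deposited by the authors. Per the submitters' processing notes the tools include TopHat2 2.1.0, Bowtie2, HTSeq 0.6.0, Cell Ranger 2.0.2 and the build mm10. The droplet UMI counts were deposited as Cell Ranger matrices by the authors. Smart-seq2 does not keep strand, so reads from a member and an overlapping antisense gene cannot be told apart.

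Counts without spike-in rows were summed per set (2838610 to 79253014 counts). The test was edgeR's quasi-likelihood test (version 4.0.16, under R 4.3.3), after filterByExpr and TMM scaling. P-values were adjusted by Benjamini-Hochberg over every gene tested, and 0.05 was the threshold. CPM per set were averaged over sets with SDs. The SE of a log2 fold change is its size divided by the square root of F. Alternatives used DESeq2 1.42.0 and limma 3.58.1, other filters and scaling, each set left out, cells with other markers left out and set numbers as a block. TPM served only to compare levels between genes. Whether sets are separate animals is not given, so p-values cover only how sets differ, and this may be technical. Droplet barcodes were kept from 1000 genes up if mitochondrial counts did not pass 10%. After a doublet caller, which marked 4 of 3406 and 189 of 6764, 3402 and 6575 cells were clustered per library with scanpy 1.11.5 (2000 variable genes without the members, 30 components, resolution 1.0), and 37 barcodes were shared between the libraries. Fold changes and intervals at low counts use a floor of 3 counts over a group and cover counting error only, since PCR copies without molecular identifiers cannot be told from molecules.

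Full statistics are given per comparison for up to 3 called members at the top and 3 at the bottom of the log2 fold changes, with 50 CPM or more in 1 group, and for the paralog pairs. Other members are given by counts or as examples chosen after their values were seen. Counts at an unadjusted p, or by DESeq2 and limma, are given without the share of all genes. They are not read as results about the members. The members and lists were chosen with earlier results of these data known. Of 11 comparisons, 2 were added after seeing the data: the difference between days and both hormone sorts against Ngn3-GFPhigh. The fitting steps were tested on simulated data.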

Additional observations from a re-analysis of the deposited data

Results flagged for a closer look

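In 100 groups of 4 to 10 sets tested for a set far from the others, 3 were found, and chance gives about 1 in 20. Rab27b was at 8 CPM in replicate 2 of the explants with U0126, while the other 3 had 0 to 0.136. Chga was at 4078 CPM in replicate 3 of the control explants, while the other 3 had 2727 to 2866. Rab3a was at 63.3 CPM in Pdx1-Cre;Rosa-RFP+ E12.5 replicate 2, while the other 3 had 24.5 to 31.1.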

How the results depend on the processing

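Across alternatives, 309 counts of calls and levels stayed within 1.5 times the reported value or within their spread and 55 moved. Of single members, 640 values kept direction and call, 80 lost their call and 0 reversed. With DESeq2 the members called higher numbered 6 for Ngn3-GFPhigh against Ngn3-GFPlow at E13.5 and 33 at E15.5, 2 for Ngn3-GFPhigh at E15.5 against E13.5, 10 per day in the Pdx1-Cre;Rosa-RFP+ lineage, 15 for the difference between days and 2 for the hormone sorts against Ngn3-GFPhigh. Called lower by DESeq2 were 1 at E14.5, 1 at E15.5, 2 for Ins1-RFP+ against Gcg-GFP+, 2 for late against early Ngn3-GFP+, 0 for Ngn3-GFP+ against Sox9-CreER;Rosa-RFP+ and 1 for the hormone sorts. With limma 6 were higher at E13.5 and 30 at E15.5, 1 for Ngn3-GFPhigh at E15.5 against E13.5 and 2 for the difference between days, and 1 was lower at E14.5, 1 at E15.5 and 2 late against early. With no filter on low counts 1 was lower for the hormone sorts. Without cells carrying other markers 0 were higher at E13.5, 8 at E15.5 and 8 late against early, where 1 was lower.

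Leaving out 1 set in turn gave 2 to 3 members higher at E13.5, 20 to 23 at E14.5, 4 to 8 at E15.5, 0 to 1 for Ins1-RFP+ against Gcg-GFP+ (0 to 0 lower), 12 to 17 late against early (0 to 1 lower), 31 to 34 against Sox9-CreER;Rosa-RFP+ (0 to 1 lower), 4 to 7 per day and 0 to 10 for the difference between days, and 0 to 0 for U0126. Where a fit left 1 set in a group, that set is assumed to vary like the others.

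Same-numbered sets deviated together only weakly, with positive correlations of 0.0634 to 0.12 at E13.5, 0.0304 to 0.0686 at E14.5 and 0.0388 to 0.138 in explants. The numbers were not taken to pair the sets, but these values do not exclude a pairing. With set number as a replicate block 3 members were higher at E13.5, 16 at E14.5, 12 at E15.5, 2 for Ins1-RFP+ against Gcg-GFP+ (0 lower), 30 against Sox9-CreER;Rosa-RFP+ (0 lower) and 0 for U0126.

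At 100 CPM in a cell the members detected were 13 in Ngn3-GFPhigh E13.5, 1 in Ngn3-GFPlow E15.5, 23 in Ins1-RFP+, 19.25 in Gcg-GFP+ E15.5, 20.75 in Ngn3-GFP+ E17.5 and 2.25 in Sox9-CreER;Rosa-RFP+ E17.5. With resolution 0.5 no Ins2-led class stood apart in library 2, and its Gcg-led class, with 518 cells instead of 266, had 95.5 CPM of Sytl4, 135 of Resp18 and 78.2 of Pcsk1. The cause of the other moves was not tested. With 2 sets a group at E15.5, few calls outlast the loss of a set.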
